A study of Mus musculus with 4 samples.

Results

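Mitochondrial fatty acid oxidation enzymes were taken as 10 nuclear genes, namely Cpt1b, Cpt2, Acadvl, Acadl, Acadm, Hadha, Hadhb, Etfa, Etfb and Etfdh. They were chosen by name for their known roles, and all 10 were among the 16472 genes with a value. Gene expression was measured by RNA sequencing in skeletal muscle of wild-type mice. Isolated mitochondria (SM-mito, 2 libraries) were compared with a second fraction (SM-total, 2 libraries). The titles call the second fraction total, while its treatment label names tissue from which mitochondria were removed and the extraction protocol speaks of a remaining fraction. A legend of the study speaks of lysates of total muscle, so the sources differ and whether the reference is whole or depleted muscle is not settled. Strain, age and treatment of the animals were not given in the sources used here, nor was it said whether the libraries of a group came from separate animals. P-values therefore measure the spread between these libraries, which may be technical. The comparison asks how much of each transcript was recovered with mitochondria relative to SM-total.

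Long-chain fatty acids enter mitochondria as carnitine esters, and the carnitine palmitoyltransferases Cpt1b (the muscle form, on the outer membrane) and Cpt2 (on the inner membrane) make and undo these esters. In the matrix, acyl-CoA dehydrogenases open each turn of the cycle: Acadvl acts on very long, Acadl on long and Acadm on medium chains. Hadha and Hadhb are the subunits of the mitochondrial trifunctional protein, which carries out the remaining steps on long chains. Electrons taken by the dehydrogenases pass to the electron transfer flavoprotein, made of Etfa and Etfb, and then through its membrane-bound oxidoreductase Etfdh to ubiquinone. Oxidative muscle is known to rely on this pathway at rest and in endurance work. All of these proteins are encoded in the nucleus, translated outside the matrix and imported.

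On build GRCm38 the genes lie on 8 chromosomes, and a single pair are neighbours. Hadha (chr5:30118304-30155162, minus strand) and Hadhb (chr5:30155248-30184593, plus strand) are read in opposite directions from starts 86 bp apart. Among the 6443 protein-coding genes tested, 571 (8.9%) had such a divergent protein-coding partner within 1000 bp. The remaining members were Cpt1b at chr15:89416405-89425863 (minus), Cpt2 at chr4:107903981-107923610 (minus), Acadvl at chr11:70010183-70015411 (minus), Acadl at chr1:66830839-66863277 (minus), Acadm at chr3:153922357-153944632 (minus), Etfa at chr9:55454508-55512243 (minus), Etfb at chr7:43444083-43457800 (plus) and Etfdh at chr3:79603788-79629500 (minus). RefSeq promoter windows (GRCm38.p6, 250 bases before to 50 after a start) were matched for 9 of the 10 members, all but Cpt1b. The window of Hadhb (chr5:30155003-30155302, plus strand) is shown because the subunits' windows overlap by 228 bases, which are in capitals. The whole printed window, capitals and small letters together, has a GC content of 60.7%.
Hadhb: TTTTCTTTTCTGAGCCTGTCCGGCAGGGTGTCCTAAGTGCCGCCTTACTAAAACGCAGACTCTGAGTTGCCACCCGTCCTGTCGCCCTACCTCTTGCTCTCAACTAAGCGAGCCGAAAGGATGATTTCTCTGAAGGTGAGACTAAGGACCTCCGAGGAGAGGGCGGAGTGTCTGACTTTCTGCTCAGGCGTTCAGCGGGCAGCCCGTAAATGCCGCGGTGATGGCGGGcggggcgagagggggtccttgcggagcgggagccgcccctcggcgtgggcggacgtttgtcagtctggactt

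Each window was searched on both strands for 3 motifs. GCATGCGC, the core bound by nuclear respiratory factor 1, was found in 3 of 9 member windows (Acadm, Etfa and Etfdh) and in 891 of 32851 windows overall (2.71%). AGGTCA, a nuclear receptor half-site, was found in 2 of 9 (Acadm and Acadvl) against 5340 windows overall (16.3%). The longer TCAAGGTCA, which contains AGGTCA, was found in 0 of 9 and in 139 windows overall (0.423%). The windows of Etfdh (chr3:79628718-79629017), Acadm (chr3:153944594-153944893) and Etfa (chr9:55512194-55512493), all on the minus strand, are shown with matches to GCATGCGC on either strand in capitals. In Etfdh the matches on the opposite strands overlap. Its window, set by a RefSeq start, lies wholly inside the gene coordinates given above (chr3:79603788-79629500).
Etfdh: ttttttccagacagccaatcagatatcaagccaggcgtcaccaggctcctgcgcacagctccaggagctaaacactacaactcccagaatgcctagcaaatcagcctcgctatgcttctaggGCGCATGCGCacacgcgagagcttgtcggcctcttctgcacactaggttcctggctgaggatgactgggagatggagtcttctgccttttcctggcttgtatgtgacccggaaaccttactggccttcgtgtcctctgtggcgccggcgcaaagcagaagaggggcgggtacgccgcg
Acadm: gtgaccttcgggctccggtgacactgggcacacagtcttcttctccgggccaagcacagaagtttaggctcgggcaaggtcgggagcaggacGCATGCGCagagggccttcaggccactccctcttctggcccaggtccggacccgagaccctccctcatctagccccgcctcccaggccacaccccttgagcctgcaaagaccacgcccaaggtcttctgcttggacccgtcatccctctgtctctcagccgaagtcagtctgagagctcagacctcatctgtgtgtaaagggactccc
Etfa: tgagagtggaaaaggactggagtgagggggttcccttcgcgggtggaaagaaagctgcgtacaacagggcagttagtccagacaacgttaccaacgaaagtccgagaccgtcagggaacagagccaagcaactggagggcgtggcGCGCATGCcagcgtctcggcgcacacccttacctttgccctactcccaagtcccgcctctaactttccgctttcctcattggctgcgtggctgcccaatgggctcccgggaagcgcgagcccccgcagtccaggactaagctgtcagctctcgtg
A match describes the letters in these windows and no binding was measured.

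The deposited values are gene counts divided by a size factor for each library, called normalized counts here. Transcripts of the mitochondrial genome took 95.3% and 94.1% of reads in SM-mito and 22.3% and 20.5% in SM-total, and mt-Co1 was higher in SM-mito by 8.86 on the log2 scale (SE 0.42, adjusted p = 0.00364, limma) and mt-Atp6 by 8.82 (SE 0.38, adjusted p = 0.00317, limma). A further 4.49% and 5.37% of reads in SM-mito, against 1.34% and 1.25% in SM-total, fell on 17 nuclear genes that are copies of the mitochondrial genome. The other nuclear genes, to which all members belong, had only 100924 and 181152 reads in the SM-mito libraries, against an estimated 11989623 and 11968682 in SM-total. Summed myofibre markers were 6.09 times lower in SM-mito (240511 and 251500 against 40594 and 40239 normalized counts, 7 of 8 called lower), and summed endothelial markers 4.62 times lower (1 of 4 called lower). Markers of fibroblasts were higher in SM-mito (4 of 4 called, 1198 and 1313 against 7818 and 14570 normalized counts), as were those of macrophages (2 of 2 tested). The 4 hepatocyte markers summed to 236 and 40 in SM-total and to 10099 and 2069 in SM-mito, with 0 of 4 called. Cardiomyocyte markers summed to 196 and 334 in SM-total and 552 and 1690 in SM-mito, with 0 of 2 tested called. For white adipocytes and erythrocytes 0 of 2 tested markers each were called, and no brown adipocyte marker was high enough to test. The part of these cell types in the results below was not tested, and a smaller share of a cell type cannot be told apart from less RNA per cell. The fragmentation time was also set separately for mitochondrial RNA, an effect of which cannot be told apart from the fraction.

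In the deposited scaling, all 10 members had lower normalized counts in both SM-mito libraries than in either SM-total library. Genes with a mean of at least 20 normalized counts were tested with limma on log2(normalized count + 1), and 8 members were among the 6916 genes tested, all with group means above 20 in both fractions. Acadvl, Hadha and Hadhb passed the threshold (adjusted p under 0.05) as lower in SM-mito and 0 members as higher, where 9.30% of all genes tested were called lower and 7.32% higher. Of the 8, 8 had fractions that did not overlap with SM-mito lower, against 43.7% of all genes tested. The median log2 fold change of the 8 was -1.04, beside -0.44 over all genes tested, and all 8 were below that overall median. edgeR's quasi-likelihood test on the recovered and estimated reads called 4 members lower and 0 higher, where it called 17.6% of all genes lower and 13.6% higher. The plot of members by library shows these values.

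**Figure D1:**
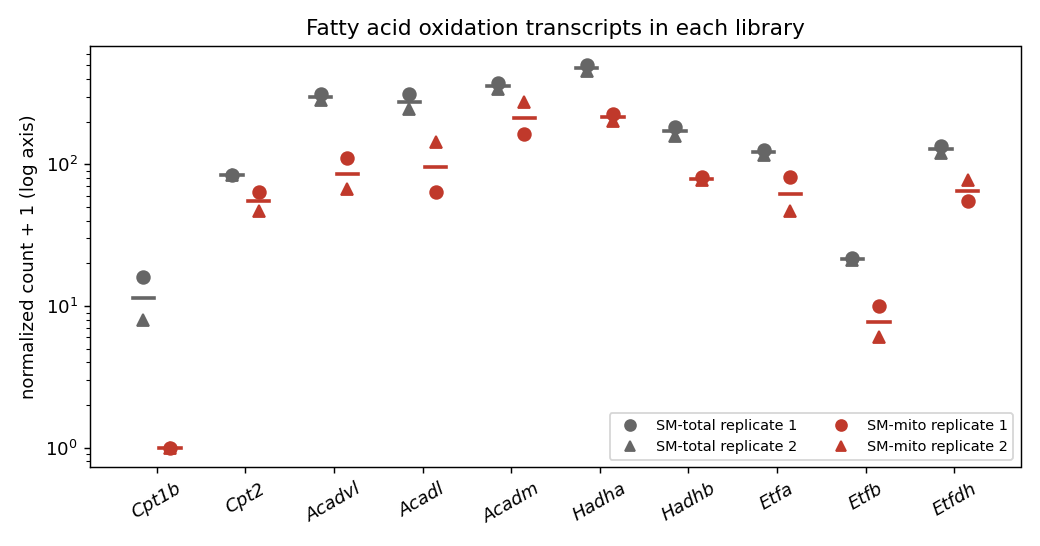
Normalized counts plus 1 (log axis) of the 10 members, ordered by role, in the 2 SM-total libraries (grey) and the 2 SM-mito libraries (red). Points are libraries and bars are means on the log scale; for every member both red points lie below both grey points, and Cpt1b is at 0 normalized counts in both SM-mito libraries.

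Of the carnitine palmitoyltransferases, Cpt2 had the smallest fold change among the members tested. It had 83 normalized counts in each SM-total library and 63 and 46 in SM-mito, where these values rest on 7 and 9 reads. The fractions did not overlap, but the difference of -0.62 on the log2 scale (SE 0.28) did not pass the test (adjusted p = 0.193, limma). Cpt1b, the gateway enzyme of muscle, had only 15 and 7 normalized counts in SM-total and 0 reads in both SM-mito libraries. A count of 0 allows up to 27.1 normalized counts in SM-mito replicate 1 and 15.2 in replicate 2 (3 reads in each), which is not below the SM-total values. Taken library by library, a difference in Cpt1b was therefore not detectable at this depth. The SM-mito libraries were not pooled for Cpt1b.

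Among the acyl-CoA dehydrogenases, Acadvl showed the most negative fold change of all members tested. It had 315 and 282 normalized counts in SM-total and 109 and 66 in SM-mito (12 and 13 reads). This is a 3.48-fold lower level on the log2 scale with a pseudocount of 1 (log2 fold change -1.80, SE 0.32, adjusted p = 0.0371, limma). Acadl had 313 and 244 normalized counts in SM-total, and its SM-mito values of 63 and 142 lay far apart (7 reads with an exact Poisson 95% interval of 2.81 to 14.4, and 28 reads with 18.6 to 40.5). Its log2 fold change of -1.54 (SE 0.46) did not pass limma's test (adjusted p = 0.0965). It passed edgeR's in the deposited scaling (adjusted p = 0.0433), but not with TMM scaling (0.0661, edgeR) or in DESeq2 (0.0562). Acadm had 373 and 339 normalized counts in SM-total and 163 and 273 in SM-mito (18 and 54 reads). The fractions did not overlap, but the log2 fold change of -0.75 (SE 0.31) did not pass the test (adjusted p = 0.170, limma; 0.138, edgeR).

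The read ratios between these dehydrogenases differed between the SM-mito libraries. Reads of Acadm over those of Acadvl came to 1.18 and 1.20 in SM-total, and to 1.5 (95% counting interval 0.684 to 3.41) and 4.14 (2.24 to 8.30) in SM-mito. For Acadl over Acadvl the ratio was 0.994 and 0.865 in SM-total, and 0.578 (0.195 to 1.61) and 2.15 (1.08 to 4.53) in SM-mito. Both ratios were thus higher in SM-mito replicate 2 than in replicate 1, but their counting intervals overlapped and the difference was not tested. Per kb of the longest transcript, Acadm was the highest of the 3 in all 4 libraries, while Acadl was above Acadvl in 1 library of each fraction.

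The subunits of the trifunctional protein were close between the libraries of each fraction. Hadha, the alpha subunit with the hydratase and long-chain dehydrogenase activities, had 501 and 455 normalized counts in SM-total and 226 and 202 in SM-mito (25 and 40 reads), 2.23-fold lower (log2 fold change -1.16, SE 0.19, adjusted p = 0.0312, limma). Hadhb, the beta subunit with the thiolase activity, had 182 and 158 in SM-total and 81 and 76 in SM-mito (9 and 15 reads), 2.15-fold lower (log2 fold change -1.10, SE 0.22, adjusted p = 0.0446, limma). Both fell with no overlap of the fractions. Their read ratio, Hadha over Hadhb, was 2.75 and 2.88 in SM-total and 2.79 (1.25 to 6.76) and 2.66 (1.44 to 5.20) in SM-mito. The ratio thus lay between 2.66 and 2.88 in the 4 libraries, although the intervals in SM-mito allow wide differences. Transcripts of 56 other genes resemble the longest Hadhb transcript over 75 nt or longer, with an identity of no less than 95%. Its reads may therefore be counted incompletely. That transcript has 4388 nt and the longest coding one 2048 nt, so the stretches need not lie in the coding transcript.

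None of the electron transfer members passed limma's test. Etfa, the alpha subunit of the flavoprotein, had 126 and 115 normalized counts in SM-total and 81 and 46 in SM-mito, from 9 reads in each (log2 fold change -0.97, SE 0.36, adjusted p = 0.138). Etfdh, the oxidoreductase that hands the electrons to ubiquinone, had 133 and 120 in SM-total and 54 and 76 in SM-mito (6 and 15 reads), with the same log2 difference of -0.97 and an SE of 0.28 (adjusted p = 0.0895). In edgeR with the deposited scaling both lay just outside the threshold (adjusted p = 0.0537 for Etfa and 0.0520 for Etfdh). With TMM scaling they lay further from it (0.111 and 0.103, edgeR). Etfb, the beta subunit, had 21 and 20 normalized counts in SM-total and 1 read in each SM-mito library, and was not tested. Its pooled level in SM-mito was 0.317 times that in SM-total, with a counting interval of 0.0383 to 1.14 that includes equal levels.

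Which members passed the test depended on the libraries used. Acadvl, Hadha and Hadhb lost their calls when SM-total replicate 1 was left out (adjusted p = 0.173, 0.402 and 0.653, limma) and when SM-total replicate 2 was left out (0.112, 0.299 and 0.508), and 0 members were then called. Their log2 fold changes stayed close to those with all libraries, at -1.72 and -1.88 for Acadvl, -1.09 and -1.23 for Hadha and -1.0 and -1.20 for Hadhb without SM-total replicates 1 and 2, in this order. Without SM-mito replicates 1 and 2, in this order, they were -2.16 and -1.44 for Acadvl, -1.24 and -1.08 for Hadha and -1.15 and -1.06 for Hadhb. In these fits the single library is assumed to vary like the other group.

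Low values of Cpt1b and Etfb coincided with exons that other annotated genes also cover. In GENCODE M21, 81.4% of the exon bases of Cpt1b (2744 of 3372) lie in the same-strand gene Gm44502, and 58.2% of those of Etfb (678 of 1164) are shared, mainly with the same-strand gene Gm45233. The authors left out reads that overlap several genes, so most of Cpt1b could give no counted read if their annotation held the same models. Gm44502 and Gm45233 were not among the 16472 genes with a value, which does not show whether that annotation held them. For Acadvl, 42.9% of exon bases overlap Dvl2 on the opposite strand. Whether strand was used in counting was not stated, so reads of Acadvl and Dvl2 may not be separable. The shares were 3.7% for Etfdh, 0.9% for Hadha and 0 for the other 5 members. A level per kb of unshared exon assumes that no read in shared exons was counted. On this measure Cpt1b came to 23.9 and 11.1 normalized counts and Etfb to 43.2 and 41.2 in SM-total. The plot of shared exon sequence shows both members apart from the rest, and the part of the overlap in their low values was not tested.

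**Figure D2:**
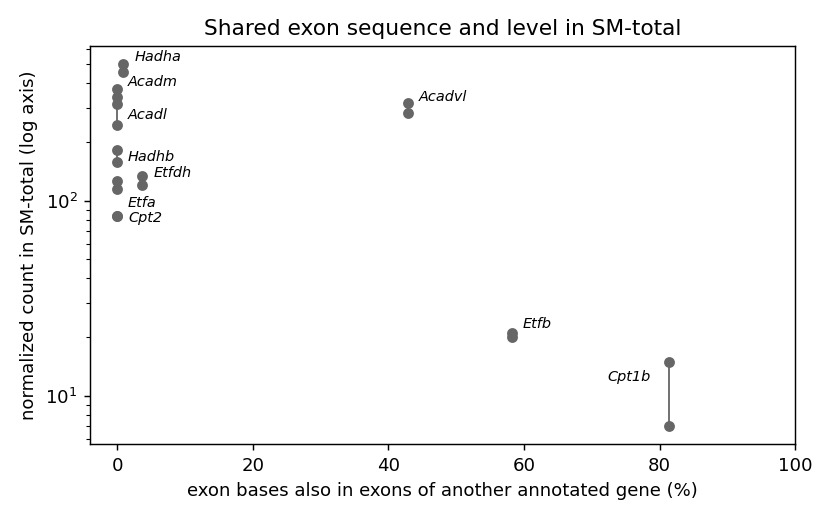
Normalized count in SM-total (log axis, points joined per gene are the 2 libraries) against the percentage of a member's exon bases that lie in exons of another GENCODE M21 gene. Etfb (58.2% shared) and Cpt1b (81.4%) have the lowest values, at 7 to 21 normalized counts, while Acadvl (42.9%, opposite strand) lies among the higher ones.

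Levels per kb of the longest annotated transcript spread over a wide range in SM-total. Acadm was highest at 174 ± 11.7 normalized counts per kb (SD, n = 2), followed by Acadl at 145 ± 25.5, Acadvl at 138 ± 10.8, Hadha at 119 ± 8.1 and Etfa at 86.6 ± 5.59. Below these were Hadhb at 38.7 ± 3.87, Cpt2 at 35 in both libraries, Etfdh at 33.8 ± 2.46, Etfb at 23.0 ± 0.792 and Cpt1b at 3.80 ± 1.95. The libraries of Acadl and Acadvl overlapped, as did those of Cpt2 and Etfdh, so these neighbours did not differ beyond their spread. In SM-mito the order by mean level per kb was Acadm (106), Acadl (53.5), Hadha (53.3), Etfa (45.6), Acadvl (40.4), Cpt2 (23.0), Hadhb (17.9), Etfdh (17.4), Etfb (7.84) and Cpt1b (0). Acadvl was 3rd in SM-total and 5th in SM-mito. Its SM-mito libraries (50.3 and 30.4) overlapped those of Etfa (58.2 and 33.0) and Acadl (32.9 and 74.1). Hadha lay below Acadvl in SM-total without overlap (125 and 113 against 145 and 130) but not in SM-mito (56.3 and 50.3). This change of place rests on 12 and 13 Acadvl reads in SM-mito and was not tested. The order depends on the length used. On the longest coding transcript Hadhb came to 83.0 and Etfdh to 53.2 normalized counts per kb in SM-total. On the union of exons Acadl came first in SM-total. Per kb of unshared exon Acadvl came first in both fractions (194 in SM-total and 57.0 in SM-mito). This last measure assumes that no read in shared exons was counted, which is not known for exons on opposite strands.

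Because 2 fractions of such unlike composition were compared, the members were also expressed as a share of nuclear reads without the 17 copies of the mitochondrial genome. The 10 members together took 1213 and 1074 ppm of these reads in SM-total. In SM-mito they took 931.4 ppm (94 reads, exact 95% interval 752.7 to 1140) and 1016 ppm (184 reads, 874.3 to 1174). The mean share was 1.17 times higher in SM-total, and the intervals of both SM-mito libraries reach the SM-total replicate 2 value. With the copies counted among the nuclear reads, an alternative chosen after seeing the data, the share in SM-mito was 46.5 and 88.6 ppm and the ratio was 16.7. In normalized counts the summed members were 2.18 times higher in SM-total (1942 ± 169 against 890.5 ± 58.7, SD, n = 2). No test was run on these sums, and an exact permutation test of 2 against 2 libraries could not go below p = 0.33.

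The direction of the smaller differences depended on that scaling. When libraries were scaled to the sum of nuclear genes, again leaving out those copies, the median over all genes tested was 0.43 on the log2 scale, and Cpt2 (0.27, adjusted p = 0.547, limma) and Acadm (0.14, adjusted p = 0.780, limma) turned positive while the other 6 stayed negative. None of the 8 was then called. Relative to the median of all genes tested, which was -0.44 in the deposited scaling, the members ranged from -0.17 (Cpt2) to -1.36 (Acadvl). All 8 were below the median of all genes tested under every scaling and every count test tried, as the plot of scalings shows. Without SM-mito replicate 2, 7 of 8 were below it, and with no filter on low values 9 of 10.

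**Figure D3:**
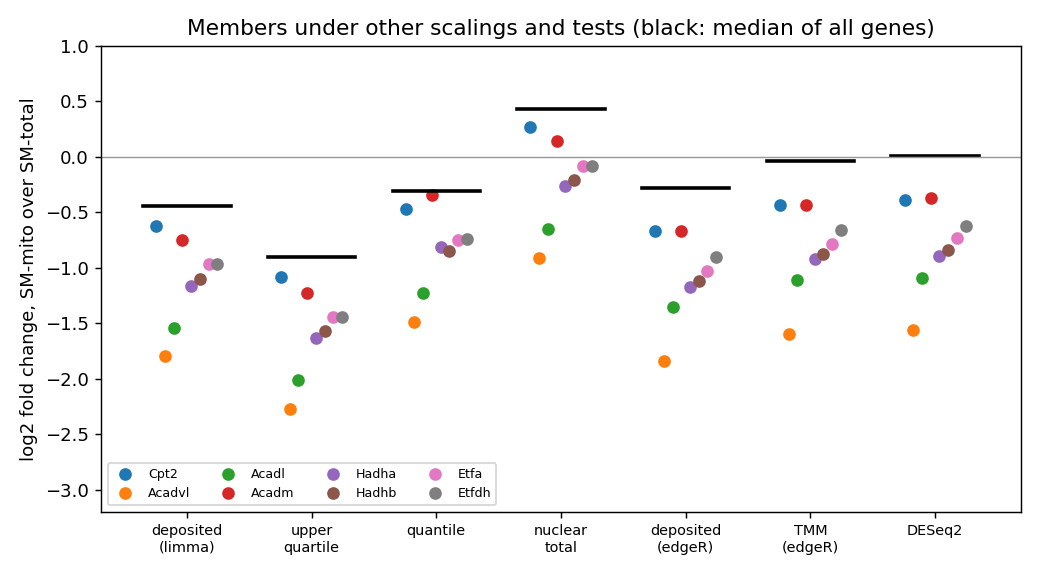
Log2 fold changes (SM-mito over SM-total) of the 8 members tested, in the deposited scaling and under 6 other scalings or count tests, with the median of all genes tested as a black line. The points move with the line, from a line at -0.90 (upper quartile) to 0.43 (nuclear total, which leaves out copies of the mitochondrial genome), and stay below it in each setting; Cpt2 and Acadm are above 0 under the nuclear total.

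Other genes of fatty acid metabolism were described from a list of 47, of which 41 were tested. Acacb and Crat were called lower by limma and 0 genes higher, where 9.30% of all genes tested were called lower and 7.32% higher. At an unadjusted p under 0.05, 1 gene was higher (limma). Called higher were 2 in edgeR with the deposited scaling (940 of 6916 over all genes) and 4 in DESeq2 (1404 of 6916). The median log2 fold change of the 41 was -0.85, beside -0.44 over all genes tested. Acacb, the mitochondrial-surface acetyl-CoA carboxylase whose product inhibits carnitine palmitoyltransferase, had 828 and 816 normalized counts in SM-total and 136 and 152 in SM-mito (log2 fold change -2.51, SE 0.18, adjusted p = 0.00840, limma). Crat, which links carnitine with short acyl groups, had 525 and 490 in SM-total and 190 and 212 in SM-mito (log2 fold change -1.33, SE 0.18, adjusted p = 0.0235, limma). Crat lost its call without either SM-total library (log2 fold change -1.28 and -1.38, adjusted p = 0.261 and 0.208, limma), whereas Acacb kept it in every alternative.

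Several other genes of transport and of the cycle were followed whatever their values, and those in this paragraph did not pass the test. Slc25a20, which carries acylcarnitines across the inner membrane between Cpt1b and Cpt2, had 49 and 43 normalized counts in SM-total and 54 and 51 in SM-mito (log2 fold change 0.19, adjusted p = 0.623). Transcripts of 64 other genes resemble its longest transcript in the way described for Hadhb. Cpt1a, the form known from liver, had 15 and 18 against 45 and 30 (1.11, adjusted p = 0.149), opposite in sign to Cpt2. For other steps of the mitochondrial cycle, Acads gave a log2 fold change of -0.91 (adjusted p = 0.404), Hadh of -0.85 (0.146), Echs1 of 0.03 (0.933) and Acaa2 of -0.20 (0.652). The auxiliary enzymes for unsaturated chains, Eci1, Decr1 and Ech1, lay at -0.69, -0.80 and -0.80 (adjusted p = 0.370, 0.125 and 0.254), while Eci2, of the same class, lay at 0.41 (0.412). For uptake and activation, the fatty acid transporter Cd36 lay at -0.76 (0.151), the binding protein Fabp3 at -0.93 (0.0921) and the acyl-CoA synthetase Acsl1 at -1.48 (0.132). In the same group 3 of 10 genes tested had positive values without overlap of the fractions. Over all genes tested, 25.5% did not overlap with SM-mito higher. The 3 were the lipase Lpl at 0.47 (0.169) and the synthetases Acsl5 at 2.58 (0.149, from 18 and 5 reads in SM-mito) and Acsl6 at 0.28 (0.522). Eci2 and these 3 genes were chosen after their values were seen. These adjusted p-values are limma's.

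Grouped by role, 0 of 12 tested genes of other mitochondrial cycle steps were called and their median log2 fold change was -0.82, while the 3 peroxisomal genes tested had a median of -0.06. The 10 genes of uptake and activation had a median of -0.93 and 0 calls, the 3 other carnitine shuttle genes a median of 0.19 with Crat called, and the 4 ketone body genes tested a median of -0.84 and 0 calls. Regulators had a median of -1.35 over 9 tested, with Acacb called. Among them Ppargc1a, a coactivator of this pathway, lay at -1.35 (adjusted p = 0.0832, limma), Ucp3 at -2.09 (0.169) and Pdk4 at -0.48 (0.465). Ppara, a receptor that activates many member genes, had 16 and 20 normalized counts in SM-total and 18 and 20 in SM-mito and was not tested. The plot by group shows each gene with its error.

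**Figure D4:**
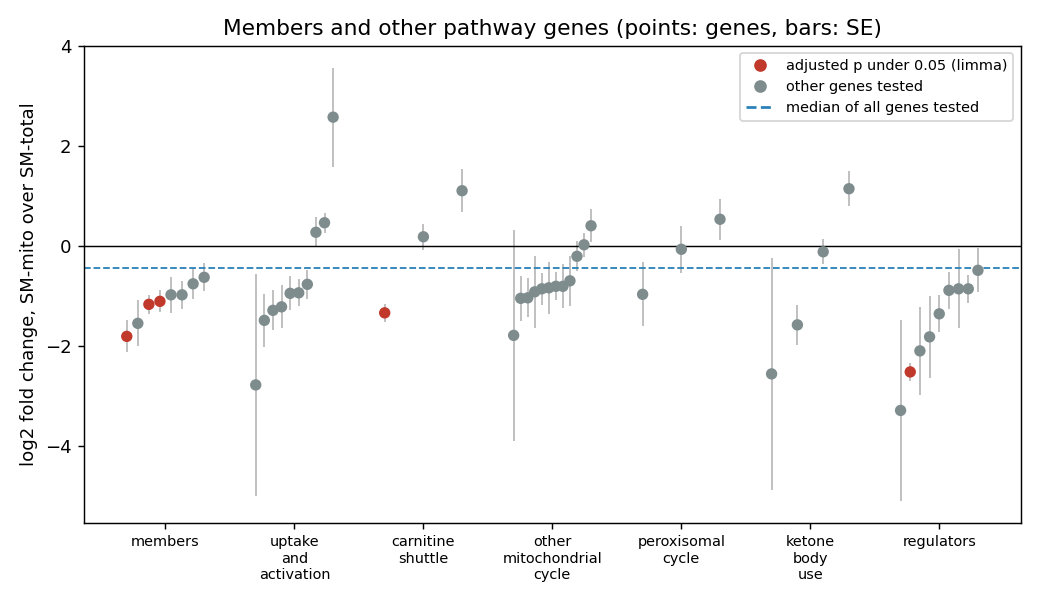
Log2 fold changes (SM-mito over SM-total; points are genes, bars are SE) of the 8 members and the 41 other pathway genes tested, by role, with genes called by limma in red and the median of all genes tested as a dashed line at -0.44. In the deposited scaling the members lie between -1.80 and -0.62, all under the dashed line; the red regulator is Acacb and the red carnitine shuttle gene is Crat.

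The members were set beside genes of neighbouring pathways. All 17 genes of the tricarboxylic acid cycle, which takes up the acetyl-CoA made by the members, were tested, 7 were called lower and their median log2 fold change was -1.0 (range -1.65 to -0.34). Of the cytosolic glycolytic genes 13 were tested, 12 were called lower and their median was -1.63. Over all genes tested, 9.30% were called lower. The difference between these lists was not tested. In the log2 profile over the 4 libraries, the nuclear genes outside all lists nearest to the median of the members were Atg2b, Abcb4, Spag9, Phtf2 and Des, at root mean square distances of 0.021 to 0.038. The members themselves lay at 0.032 (Hadhb) and 0.066 (Hadha) to 0.490 (Acadl). The median was taken over these same members, so a small distance only places a member near the middle of the list. With 4 libraries in 2 fractions, likeness to this profile describes mainly the difference between fractions.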

How the data were processed

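RNA of wild-type mouse skeletal muscle was sequenced in 4 libraries, grouped by the labels. Per the labels, the authors used Trimmomatic 0.39, STAR 2.7.10a, featureCounts 2.0.2 and DESeq2 1.30.1 on build GRCm38. They counted reads over exons and left out those overlapping several genes or aligning to several places. The deposited values are a signal, gene counts divided by a size factor and rounded. In SM-mito low values (under 2000) were whole multiples of 9.049 (replicate 1, 99.95% of 10508 values) and 5.059 (replicate 2, 99.97% of 11660), within 0.5, so whole reads were recovered. SM-total reads were estimated at 7.05 per normalized count. Total reads were 15704036 and 15301865 for SM-total and 42749263 and 35306106 for SM-mito, and reads per tested gene had medians of 5 and 10 in SM-mito against 352 and 345, which limits precision.

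The fractions were compared with limma 3.58.1 (R 4.3.3, trend, two-sided, Benjamini-Hochberg, threshold 0.05) on log2(value + 1) for genes with a mean of at least 20. edgeR 4.0.16 and DESeq2 1.42.0 on reads, other scalings, pseudocounts and filters, a replicate block and leaving out each library were alternatives. Scripts were tested on simulated data. Replicates differed by more than counting noise (chi-square per degree of freedom 7.22 and 4.59). Annotation was GENCODE M21 (16457 of 16472 identifiers found); similar transcripts, and the 17 nuclear copies of the mitochondrial genome (85% identity over at least 50% of a transcript), were searched with BLAST 2.17.0. Intervals are at 95% and cover counting error only, since reads carry no molecular identifiers. The text names the members, a list of pathway genes whatever their values, other listed genes that passed the test, 2 mitochondrial transcripts, and the 5 nearest genes. In the pathway list, 1 gene is not reported here. Members and lists were chosen with earlier results of these data known.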

Additional observations from a re-analysis of the deposited data

How the results depend on the processing

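Shallow nuclear coverage of SM-mito (6 to 54 reads per tested member and library) and 2 libraries a fraction limit these results. Of the members' calls, Hadha held in 12 of 17 alternatives, Acadvl in 10 and Hadhb in 9, and 0 members were called higher in any. The 1149 genes called became 3691 with no filter on low values, 682 with a mean of at least 5, 1914 with upper quartile scaling, 6732 with the total of all genes, 2281 in DESeq2, 2157 and 1977 in edgeR with the deposited scaling and TMM, and 472 to 4841 with a library left out. The share of calls that were higher, 44.0%, became 18.0% with no filter, 22.8% with upper quartile scaling, 0.564% with the total of all genes, 85.8% with the nuclear total, 55.1% with quantile normalization, 55.9% with TMM and 61.6% with DESeq2. The 3 members called lower became 1 with a mean of at least 5, 6 with upper quartile scaling, 8 with the total of all genes, 0 with the nuclear total, quantile normalization or eBayes without trend, and 0 to 8 with a library left out. Other pathway genes called lower (2) became 10 with upper quartile scaling, 41 with the total of all genes, 1 with the nuclear total or without trend, and 1 to 22 with a library left out. Those called higher (0) became 2 with the nuclear total or edgeR under either scaling, 4 in DESeq2, and 0 to 6 with a library left out. The members' median of -1.04 became -1.51 (upper quartile), -0.78 (quantile and DESeq2), -7.73 (total of all genes), -0.15 (nuclear total) and -0.84 (TMM). Against the median of all genes it was -0.59, and -0.35 with no filter, -0.47 with quantile normalization, -0.80 in edgeR under either scaling, -0.79 in DESeq2, -0.83 with the total of all genes, and -0.77 to -0.51 with a library left out. Cpt2 (0.27) and Acadm (0.14) reversed with the nuclear total. The summed share, 1.17 times higher in SM-total, was 238 times higher as a share of all reads, which count mitochondrial transcripts, and 16.7 times higher as a share of nuclear reads with copies of the mitochondrial genome (chosen after seeing the data). The nuclear total here leaves these copies out. The causes of the other shifts were not tested. With the replicate number as a block, 1774 genes were called, of them 35.5% higher, with 8 other pathway genes lower and 1 higher. Under the block Hadhb was not called (adjusted p = 0.0604, limma) and Acadl was (0.00587, limma). Same-numbered libraries deviated together only weakly (Pearson r = 0.141 across genes), and nothing in the labels pairs them.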
